A study of Drosophila melanogaster with 18 samples.

Results

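The mitochondrial ribosomal protein genes of Drosophila melanogaster were here every gene in both exon count tables whose FlyBase symbol begins with mRpL or mRpS. This gave 72 of 17494 genes, 47 named for the large subunit (mRpL) and 25 for the small subunit (mRpS). The split follows the symbols only. All 72 passed the filter on low counts in males and in females. Their positions, in the Release 6 (dm6) build, were identical in the count table and in the reference annotation.

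The study asked whether human ZKSCAN3 can stand in for the Drosophila zinc finger factor M1BP, which binds the core promoter element called Motif 1. RNA came from larval fat body, an organ that stores nutrients and does part of the work of the vertebrate liver, at the third larval instar. In feeding males (L3F) with gonads removed, the fat body driver cgGal4 was present in all 4 genotypes, namely cgGal4>WT (WT), cgGal4>M1BP-RNAi (M1BP RNAi), cgGal4>HA::ZKSCAN3 (ZKSCAN3) and cgGal4>M1BP-RNAi;HA::ZKSCAN3 (M1BP RNAi + ZKSCAN3), with 2 libraries each. The labels give the fly transgene an HA tag, where the stock list of the study names a myc tag. Wild-type females gave 2 libraries in feeding larvae (L3F) and 2 in wandering larvae (L3W), the stage at which larvae leave the food before they pupate. Peaks came from anti-HA ChIP-seq in S2 cells, a line derived from late embryos. Of these, 1 stably transfected line carried HA::ZKSCAN3 and another HA::ZKSCAN4. The tagged factors were induced with copper sulphate before chromatin was prepared, and the labels and the study differ on its dose and duration. The labels do not say that the replicates came from separate crosses, so that p-values measure the spread between these libraries only. A knockdown under cgGal4 is also limited to cells in which that driver works, and RNA from the other cells of the dissected tissue stays in the library.

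The mitochondrial ribosome translates the few proteins encoded by the mitochondrial genome, all of them subunits of the respiratory chain or of ATP synthase. Its RNAs are mitochondrial, while all of its proteins are encoded in the nucleus, made in the cytoplasm and imported. Many have a bacterial homologue under the same number (here 41 genes, up to mRpL36 and mRpS21). The 31 genes with higher numbers were set apart by number only, and a higher number does not by itself make a protein specific to mitochondria. The fat body of the feeding larva grows and stores nutrients, and that of the wandering larva enters the autophagy that precedes metamorphosis.

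Library totals ran from 53462739 to 76798943 counts in males and from 58313885 to 74175081 in females. M1BP itself was at 16.3 and 16.5 TPM (transcript abundance after correction for exon length and depth) in WT, at 9.76 and 8.88 in M1BP RNAi and at 11.03 and 12.7 in the combined genotype. In CPM (counts scaled to library size with TMM factors) it was at 15.7 and 17.0 in WT and at 6.57 and 7.02 in M1BP RNAi. The fall in M1BP RNAi was 1.27 ± 0.14 (SE) on the log2 scale (edgeR, FDR 0.0078). Fold changes here use TMM factors and TPM does not, so they can differ from the ratio of the TPM printed beside them. All 8 fat body markers found were detected in every library. Their summed CPM was lower wherever M1BP was knocked down, 189278 to 302490 against 399289 to 440567 in the other males. Summed hemocyte markers were at 202 and 326 CPM in M1BP RNAi + ZKSCAN3, against 1008 to 1652 in the other males. Summed muscle markers were at 73.0 to 155 CPM in the knockdown libraries, against 339 to 451 in the other males. Salivary gland markers were at 584 and 813 CPM in M1BP RNAi + ZKSCAN3 and at 607 in replicate 1 of M1BP RNAi, against 7.63 to 36.4 in the other 5 male libraries. Testis markers were at 99.9 CPM in replicate 1 of M1BP RNAi, against 7.18 to 23.0 in the other males, and midgut markers were at 133 and 115.4 CPM in WT and ran from 54.7 to 545 in the other males. The part of these differences in the results below was not tested, and fewer cells of a type and less RNA per cell cannot be told apart in such libraries.

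In males the replicates differed for the mitochondrial ribosomal protein genes, with replicate 2 above replicate 1 in 52 of 72 genes in WT and in 71 of 72 in each of the other genotypes. Over all 11723 genes tested, replicate 2 was above in 5685 to 6563. Above all, 2 libraries stood apart. Replicate 2 of M1BP RNAi + ZKSCAN3 was the highest of the 8 male libraries in 69 of the 72 genes, against 21.2% of all genes tested. Replicate 1 of ZKSCAN3 was the lowest in 54 of the 72, against 16.3% of all genes tested. Summed over the 72 genes, WT libraries had 653 and 697 CPM. The M1BP RNAi libraries had 516 and 658 CPM, the ZKSCAN3 libraries 457 and 699, and the libraries of the combined genotype 736 and 1215.1. In females it was 819 and 721 CPM in L3F and 320 and 333 in L3W, so that the females fell into separate groups while the males did not, other than M1BP RNAi + ZKSCAN3.

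**Figure D1:**
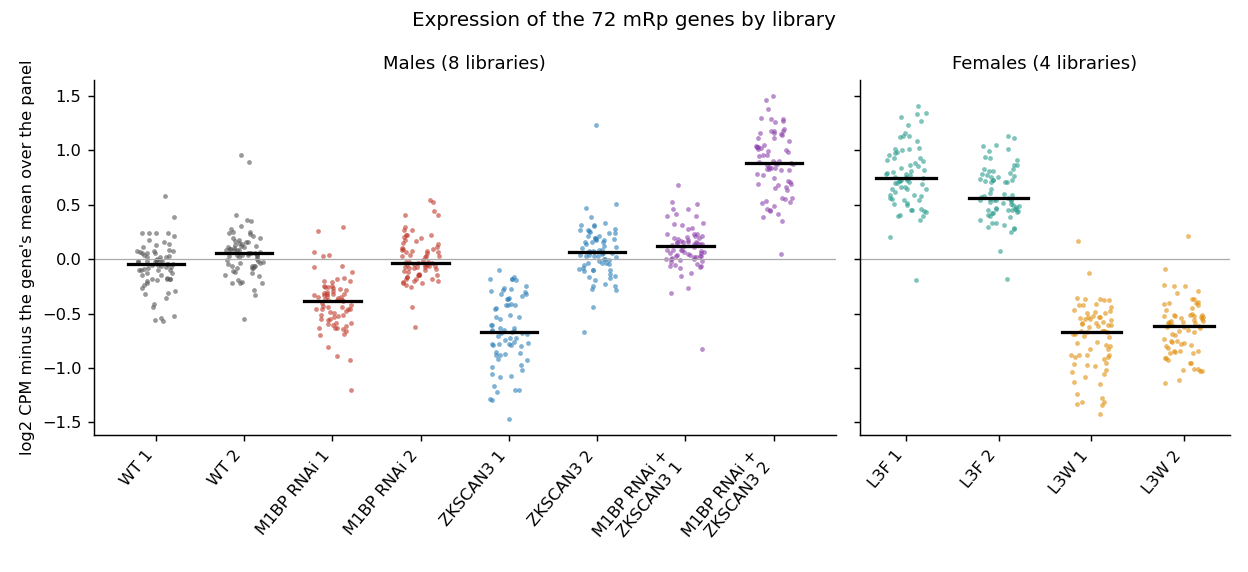
Each point is 1 of the 72 mRp genes in 1 library, as log2 CPM minus that gene's mean over the panel (males and females were scaled separately), and black lines are medians. Replicate 2 of M1BP RNAi + ZKSCAN3 lies above and replicate 1 of ZKSCAN3 below the other male libraries, and the L3W libraries lie below the L3F libraries for all genes but 1.

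The mitochondrial ribosomal protein genes were expressed at moderate and similar levels per length. The median gene had a mean of 16.3 TPM over the 12 libraries, the quartiles were 12.4 and 20.9 TPM, and the highest was 11.02 times the lowest. The highest was mRpL28 (62.3 TPM), followed by mRpL53 (49.1), mRpL30 (40.8), mRpL22 (40.0) and mRpS9 (39.9). The lowest were mRpL34 (5.65 TPM), mRpL21 (7.41), mRpL11 (9.02), mRpS10 (9.86) and mRpL23 (10.0). The level of mRpL53 cannot be assigned to it, because 100% of its exon bases lie inside exons of CG33155 or AGO1 and reads were counted without strand and for every overlapping gene. Exons overlapped those of another gene in 43 of the 72 genes, mostly by a few bases. The overlap was above 20% of exon bases in 8, which besides mRpL53 were mRpS24 (55.3%, TBC1d7), mRpS21 (48.0%, CG8870), mRpS14 (35.8%, Naa15-16 and CG32533), mRpL13 (35.2%, CG10602), mRpS9 (25.1%, ArgRS-m), mRpL17 (23.6%, CG34263) and mRpL48 (20.8%, frtz). Leaving out these 8 moved no median given below by more than the spread between replicates. The members' median log2 ratio of replicate 1 to 2 was -0.10, -0.38, -0.66 and -0.78 in WT, M1BP RNAi, ZKSCAN3 and the combined genotype. That spread is wide in males, so the check cannot tell whether small medians there depend on these genes.

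These are short genes that often share a promoter. The median exon length was 783 bases against 1874 over all genes tested in males, and 51 of 72 (70.8%) had another gene starting on the opposite strand within 500 bp, against 29.7% of all genes tested. They lie on all the large chromosome arms, with 12 on 2L, 12 on 2R, 16 on 3L, 21 on 3R and 11 on X.

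The starts of these genes most often held the E-box CAGCTG, an element found in many core promoters of broadly expressed Drosophila genes. It was present in 40 of the 72 windows from 250 bases before to 50 after the start, or 55.6%, against 18.8% of the windows of all genes tested in males and 16.3% of all windows. The letters are the same on both strands, and the search overlapped none of the other motifs. Genes named for either subunit had it, with 57.4% of the mRpL and 52.0% of the mRpS genes. Among other gene lists it was present in 44.2% of genes for mitochondrial translation factors, tRNA synthetases and RNA maintenance, in 24.7% of nuclear oxidative phosphorylation genes and in 8.05% of cytoplasmic ribosomal protein genes. No test was run on these shares, since the lists are descriptions of the genome. Over all genes tested, the E-box was present in 25.3% of those with a neighbour within 500 bp on the opposite strand. It was present in 22.5% of those with a ZKSCAN3 peak, described below. The part of either feature in the share of the members was not tested.

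The E-boxes also lay close to the start. Of 45 sites in the 40 windows, 36 (80.0%) began within 50 bases of the start on either side, against 47.5% of the 3182 sites over all genes, and 23 lay in the 50 bases after the start. Those of 8 of the more highly expressed genes, chosen after their values were seen, are shown to give its usual place and surroundings. Each stretch of 30 bases is from the RefSeq genome of the same build, 5′ to 3′ on the strand of the gene, with the E-box in capitals and its first base counted from the start, which is 1.
mRpL28 (chr2L:4973979-4974008, plus strand, E-box from 16): ttcacatacgaaCAGCTGttttttccaaac
mRpS9 (chr3R:7902710-7902739, minus strand, E-box from -60): ggcgccaaaaatCAGCTGaaagcttgtgtg
mRpL35 (chr3R:22023510-22023539, plus strand, E-box from -5): gtgaatggcacaCAGCTGactgttacgcga
mRpL47 (chr3R:9515873-9515902, minus strand, E-box from 19): ttgttattgcttCAGCTGttttgttcggtc
mRpL24 (chr2L:4945324-4945353, minus strand, E-box from 21): ttcagttctcaaCAGCTGattgcaagccgc
mRpL33 (chrX:4322207-4322236, minus strand, E-box from 8): gataggcgcagtCAGCTGttcttcgttcct
mRpL2 (chr3L:11120845-11120874, plus strand, E-box from 11): aacgccgcgtaaCAGCTGttttcagccgca
mRpS35 (chr3L:2780875-2780904, plus strand, E-box from -12): agtttctgtaaaCAGCTGattgcttgctat
In 5 of these 8 stretches the E-box lies after the start, and in all but mRpL35 a T stands 2 bases after the box or an A 2 bases before it. That longer form, CAGCTGNT on either strand, was chosen after these sequences were seen. It was present in 38 of the 72 windows (52.8%), against 13.999% of all genes tested.

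Motif 1, the element of M1BP, was present in few of them. Its 9 letters GGTCACACT stood on either strand in 8 of 72 windows (11.1%), against 7.25% of all genes tested, namely in mRpL13, mRpL22, mRpL27, mRpL48, mRpL55, mRpS16, mRpS21 and mRpS30. The search with 8 letters, GGTCACAC, found 8 as well. The DRE (TATCGATA), the element of the factor DREF, was present in 15 of 72 (20.8%, against 10.9%), and GATAAG, the element of GATA factors such as the fat body factor Serpent, in 14 (19.4%, against 19.7%). In all, 53 of 72 windows (73.6%) held an E-box, a DRE or Motif 1, against 25.9% of all windows. The E-box and Motif 1 stood together in 4 windows.

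Windows are shown for 3 genes with Motif 1 and then 2 without it, each taken for a large difference between M1BP RNAi and WT within its own class, so that they are not the 5 largest differences overall (250 bases before to 50 after the start, 5′ to 3′, with Motif 1 and E-boxes in capitals).
mRpL55 (chr3R:19094856-19095155, minus strand): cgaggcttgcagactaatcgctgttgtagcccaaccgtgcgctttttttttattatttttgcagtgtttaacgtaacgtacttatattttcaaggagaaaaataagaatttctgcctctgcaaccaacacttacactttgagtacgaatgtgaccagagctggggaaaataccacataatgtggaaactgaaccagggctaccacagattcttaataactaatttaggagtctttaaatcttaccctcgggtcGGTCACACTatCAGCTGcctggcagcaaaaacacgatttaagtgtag
mRpL13 (chr2L:18859199-18859498, minus strand): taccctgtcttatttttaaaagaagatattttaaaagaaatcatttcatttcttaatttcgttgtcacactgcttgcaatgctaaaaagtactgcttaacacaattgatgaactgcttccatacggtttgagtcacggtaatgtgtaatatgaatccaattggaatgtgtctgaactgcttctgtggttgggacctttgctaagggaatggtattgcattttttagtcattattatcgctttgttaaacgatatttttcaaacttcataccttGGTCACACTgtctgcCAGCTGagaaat
mRpS21 (chr3R:13381760-13382059, minus strand): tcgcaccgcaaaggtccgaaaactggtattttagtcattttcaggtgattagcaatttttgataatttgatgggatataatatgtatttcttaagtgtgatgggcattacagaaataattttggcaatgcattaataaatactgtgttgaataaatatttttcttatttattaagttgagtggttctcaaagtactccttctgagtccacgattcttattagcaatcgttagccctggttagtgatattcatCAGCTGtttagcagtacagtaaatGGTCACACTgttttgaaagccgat
mRpL36 (chr3L:8125083-8125382, minus strand): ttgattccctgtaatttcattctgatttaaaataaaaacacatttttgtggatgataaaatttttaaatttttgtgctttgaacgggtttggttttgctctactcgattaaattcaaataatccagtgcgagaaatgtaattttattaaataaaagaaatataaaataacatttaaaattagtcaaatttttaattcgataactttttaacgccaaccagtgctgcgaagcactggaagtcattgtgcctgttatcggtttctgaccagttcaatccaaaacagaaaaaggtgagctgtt
mRpS6 (chr3L:4364300-4364599, plus strand): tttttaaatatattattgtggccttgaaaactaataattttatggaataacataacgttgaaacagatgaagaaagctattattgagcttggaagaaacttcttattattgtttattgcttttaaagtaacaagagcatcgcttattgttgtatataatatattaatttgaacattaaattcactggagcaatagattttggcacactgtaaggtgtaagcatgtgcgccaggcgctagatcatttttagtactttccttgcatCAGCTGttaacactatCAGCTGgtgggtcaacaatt
In mRpL55, mRpL13 and mRpS21 both elements stand close together near the start. The window of mRpL36 held neither, and that of mRpS6 held 2 E-boxes, which begin at bases 15 and 31. A match is a description of the letters and not evidence of binding.

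ZKSCAN3 peaks in S2 cells lay at nearly all of these promoters. A peak overlapped the 500 bp on either side of the start in 70 of 72 genes (97.2%), against 63.4% of all genes tested in males and 46.9% of all genes. The 2 without were mRpL47 and mRpL53, which also had none within 1000 bp, and both had a ZKSCAN4 peak. ZKSCAN4 peaks, for a human paralogue of ZKSCAN3, were found at 37 of 72 (51.4%, against 41.2%). Thus 35 genes had both, 35 had ZKSCAN3 alone, 2 had ZKSCAN4 alone and none had neither, where 3926 of the 11723 genes tested had neither. High shares with ZKSCAN3 peaks were also found in other lists, with 100% of the 43 mitochondrial translation and RNA genes and 92.0% of cytoplasmic ribosomal protein genes. Of all genes tested with a neighbour on the opposite strand within 500 bp, 89.6% had a ZKSCAN3 peak, and of those without, 52.7%. Among the members it was 50 of 51 with such a neighbour (98.0%) and 20 of 21 without (95.2%). The part of such neighbours in these shares was not tested.

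The scores of the peaks, a strength given in the deposited list, had medians at these genes below those over all genes tested with a peak. The median score of the ZKSCAN3 peaks was 98.3 (22.9 to 165), against 104 over all genes tested with a peak and 127 at cytoplasmic ribosomal protein genes. The highest were at mRpL18 (165), mRpL13 (164) and mRpS16 (164), and the lowest at mRpS29 (22.9), mRpL19 (24.6) and mRpL38 (36.04). For ZKSCAN4 the median was 21.2, against 30.5 over all genes tested with a peak. Of the 70 ZKSCAN3 peaks, 34 (48.6%) had their centre within 250 bp of the start, against 44.1% over all genes tested with a peak. In many genes the peak could thus as well belong to a neighbouring start. The peaks were deposited as 1 list per factor, made by the authors with a threshold of 1% on the irreproducible discovery rate between replicates, so that the scores have no values per replicate. Both lists are longer than those the study kept after it left out HOT regions, which many factors bind, so that such regions are still included. The cells were S2 cells and not fat body.

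**Figure D2:**
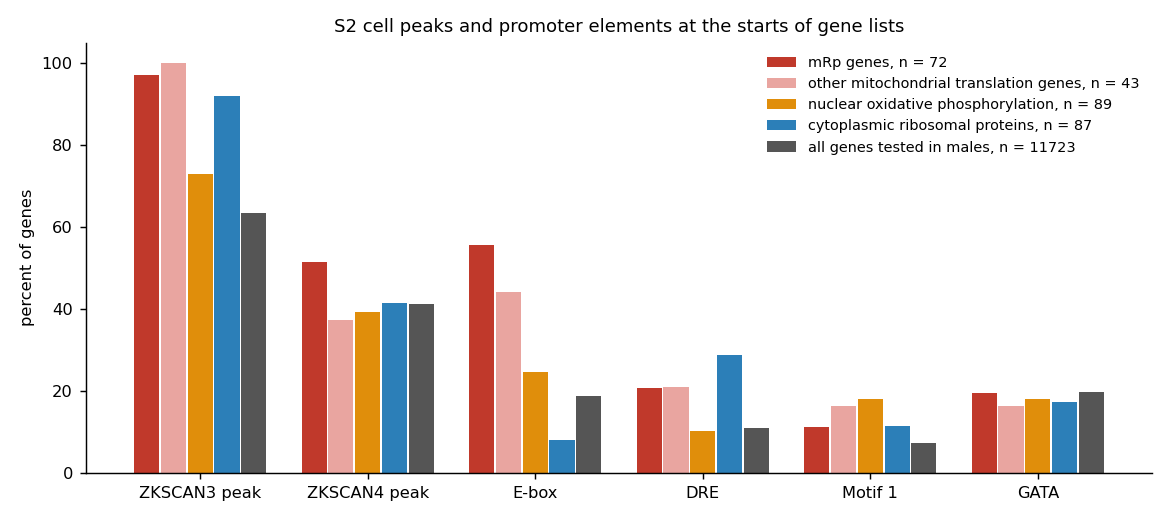
Bars give the percent of each gene list whose start has a deposited peak within 500 bp, or whose window of 250 bases before to 50 after the start holds the element (11672 of the genes tested had such a window). The mRp genes reach 97.2% for ZKSCAN3 and 55.6% for the E-box, against 63.4% and 18.8% of all genes tested.

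**Figure D3:**
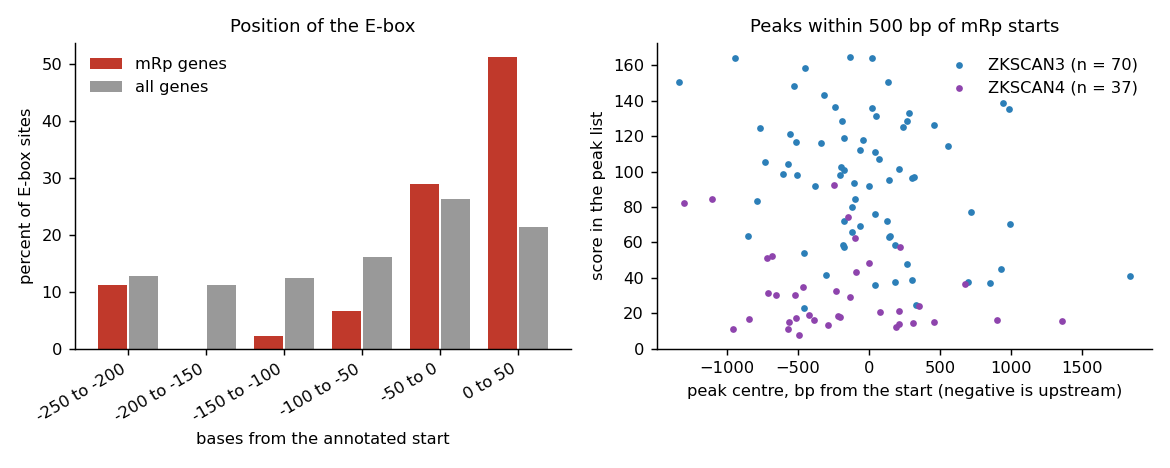
The left panel gives the percent of E-box sites that begin in each stretch of 50 bases around the start, for the 45 sites of the mRp genes and the 3182 of all genes. The right panel plots the score of each peak near an mRp start against the distance of its centre from the start, with ZKSCAN3 scores from 22.9 to 165 and no narrow band of distances.

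Fold changes were set side by side by these features, with no test. In L3W against L3F, described next, the median log2 fold change was -1.32 in the 40 genes with an E-box and -1.32 in the 32 without. The 8 genes with Motif 1 had medians farther from 0 than the 64 without in all 7 comparisons, with ranges that overlap in each. The male comparisons are made from the same 8 libraries, so their agreement does not count as separate observations. Among these genes, mRpL13, mRpS21 and mRpL48 share 35.2%, 48.0% and 20.8% of their exon bases with other genes. Their counts can include reads from those genes. In M1BP RNAi against WT the medians were -0.34 with Motif 1 (-0.65 to 0.25) and -0.17 without (-1.63 to 0.95). In M1BP RNAi + ZKSCAN3 against M1BP RNAi they were 1.03 and 0.70. For the interaction, the difference between the effects of M1BP RNAi with and without ZKSCAN3, they were 1.37 and 0.92, and in L3W against L3F they were -1.55 and -1.28. In ZKSCAN3 against WT the median was -0.23 in the 37 genes with a ZKSCAN4 peak and -0.21 in the 35 without.

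Between feeding and wandering larvae nearly the whole family fell. In L3W against L3F females, 69 of 72 genes were lower at FDR 0.05 and none was higher (edgeR), against 24.7% of all genes tested lower and 23.3% higher. The median log2 fold change was -1.32, that is, expression fell to well under its level in feeding larvae, and the middle of the family lay between -1.70 and -1.04. The median of all genes tested was -0.01. The L3F and L3W libraries did not overlap in any of the 72 genes, with 71 lower in L3W, against 39.1% of all genes tested that were lower without overlap. All 25 mRpS genes (median -1.35) and 44 of 47 mRpL genes (median -1.29) were called. By number, 40 of the 41 genes up to mRpL36 and mRpS21 were called, as were 29 of the 31 with higher numbers. The other genes of this kind, tko (the mitochondrial S12 protein) and bonsai (the S15 protein), were both lower too, with a median of -1.69. Summed fat body markers were also lower in L3W, at 287422 and 274746 CPM against 437297 and 420469 in L3F, as were muscle markers, at 43.9 and 58.3 CPM against 107 and 200.1. Salivary gland markers were at 70.8 and 997 CPM in L3F and at 14.5 and 43.9 in L3W, and hemocyte markers overlapped between the stages. The part of these markers in the fall was not tested.

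At the stricter FDR of 0.001, which the study used, edgeR called none of the 72, while 3.52% of all genes tested were lower and 4.27% higher. At an unadjusted p under 0.05, 70 members were lower and 1 higher, against 28.6% and 27% of all genes tested. DESeq2 called 54 lower at FDR 0.001, where its count over all genes was not taken. At FDR 0.05 it called 69 lower, where 2837 of 15046 genes were lower and 2683 higher. Fewer members, and fewer of all genes tested, were called by edgeR at FDR 0.05 whenever a library was left out, which leaves 1 library in a group. The median was -1.21 and -1.39 without an L3F library and -1.22 and -1.25 without an L3W library. In each of these fits 71 of 72 genes stayed below 0.

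The 5 largest falls were in mRpS30, mRpS11, mRpL14, mRpL55 and mRpL18. The mRpS30 gene, for a protein specific to mitochondria, was at 30.3 and 23.5 TPM in L3F and at 5.34 and 6.42 in L3W, and it fell by 2.43 ± 0.19 (SE) on the log2 scale (edgeR, FDR 0.0014). The mRpS11 gene, for a small subunit protein with a bacterial homologue, was at 18.2 and 15.3 TPM in L3F and at 3.55 and 3.98 in L3W (log2 fold change -2.38). The mRpL14 gene, for a large subunit protein at the interface of the subunits in bacteria, was at 25.1 and 21.3 TPM in L3F and at 4.63 and 6.096 in L3W (-2.34). In each of these genes the L3W libraries stood together well below the L3F libraries. The changes were -2.22 in mRpL55 and -2.19 in mRpL18, which is the homologue of a bacterial protein that binds 5S rRNA.

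The 3 genes not called were mRpL38, mRpL52 and mRpL19. The first, for a protein specific to mitochondria, was at 17.3 and 13.7 TPM in L3F and at 11.02 and 14.5 in L3W (log2 fold change -0.51 ± 0.20, edgeR FDR 0.0995), which overlap in TPM but not in CPM. The mRpL52 gene was at 15.9 and 17.3 TPM in L3F and at 14.6 and 13.04 in L3W (-0.49 ± 0.17, edgeR FDR 0.0801). Only mRpL19 lay the other way. This gene, for the homologue of a bacterial large subunit protein, was at 10.5 and 10.8 TPM in L3F and at 15.6 and 16.8 in L3W (log2 fold change 0.38 ± 0.12, edgeR FDR 0.0634). With library totals in place of TMM it was called higher (0.61, FDR 0.018). It spans chr3R:8674109-8675196 on the plus strand, shares no exon with another gene and has an E-box beginning at base 9.

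**Figure D4:**
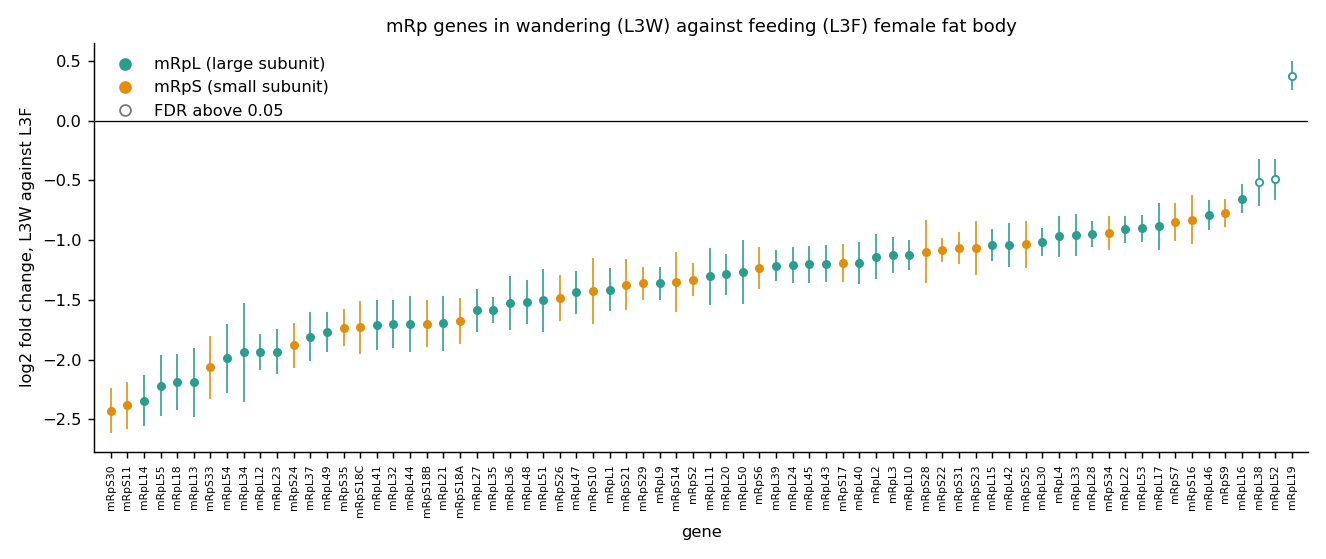
Points are log2 fold changes of the 72 mRp genes in L3W against L3F females (2 libraries each) with SE bars, in order of size, and open points are those above FDR 0.05. All but mRpL19 lie below 0, from -2.43 in mRpS30 to -0.49 in mRpL52.

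Genes of oxidative phosphorylation and other genes of mitochondrial and cytoplasmic translation were lower in L3W as well, by different amounts. The median log2 fold change was -1.91 in 69 nuclear oxidative phosphorylation genes (64 called lower), -1.04 in 42 genes of mitochondrial translation and its RNA (29 called lower), and -0.56 in 84 cytoplasmic ribosomal protein genes (74 called lower), none of them with a gene called higher. Genes of the mitochondrial genome did not share this, with a median of -0.16 over 36 genes, of which 7 were called lower and 3 higher. Their summed CPM was 72115 and 66804 in L3F and 89746 and 84619 in L3W. At FDR 0.001 edgeR called 44 of the 69 oxidative phosphorylation genes lower, against 3.52% of all genes tested and none of the mitochondrial ribosomal protein genes. The difference between the lists was not tested.

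In males, knockdown of M1BP alone changed no member past the threshold. In M1BP RNAi against WT edgeR called 0 of 72 at FDR 0.05 and 0.001, where 3.93% of all genes tested were higher and 4.29% lower at FDR 0.05, and 0.0341% were higher at FDR 0.001. At an unadjusted p under 0.05, 1 was higher and 3 were lower (against 15.5% and 14% of all genes tested). DESeq2 called 1 member lower at FDR 0.05, where 1454 of 16082 genes were lower. The median log2 fold change was -0.20, with 53 of 72 below 0 (against 43.2% of all genes tested below 0 and 56.8% above), but it was 0.25 with library totals in place of TMM. The median of all genes tested moved likewise, from 0.11 to 0.58, so that the median of the members lay below that of all genes under both scalings while its direction against WT depended on the scaling. In CPM the groups did not overlap in 28 genes that were lower and 3 that were higher, against 30% and 34.1% of all genes tested. Replicate 1 of M1BP RNAi carried much of the difference, since the median was -0.03 without it and -0.47 without replicate 2.

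Nuclear oxidative phosphorylation genes had lower values in the same comparison, with a median of -1.06 and 67 of 81 below 0 (4 called lower and 1 higher at FDR 0.05). For cytoplasmic ribosomal protein genes the median was -0.39, with 81 of 85 below 0 and 2 called lower.

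The members farthest from the rest were mRpL36 and mRpS6. The mRpL36 gene (chr3L:8124584-8125132, minus strand), for the homologue of a very small bacterial protein, was at 36.4 and 42.4 TPM in WT and at 15.1 and 19.2 in M1BP RNAi (log2 fold change -1.63 ± 0.51, edgeR FDR 0.0998). The groups did not overlap. DESeq2 called it with all libraries (FDR 0.011), and over the alternatives in edgeR that kept every library its FDR ran from 0.022 to 0.128. With ZKSCAN3 alone it was at 22.7 and 55.4 TPM and in the combined genotype at 17.6 and 36.01, with a wide spread in both. It was the only member below 0 in M1BP RNAi + ZKSCAN3 against ZKSCAN3.

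The mRpS6 gene (chr3L:4364550-4365243, plus strand), for a small subunit protein with a bacterial homologue, lay the other way in both groups with M1BP RNAi. It was at 5.77 and 5.31 TPM in WT and at 14.6 and 14.5 in M1BP RNAi (0.95 ± 0.29, edgeR FDR 0.0921). It was at 5.33 and 5.05 TPM in ZKSCAN3 and at 13.998 and 26.5 in M1BP RNAi + ZKSCAN3. All 4 libraries with M1BP RNAi were thus above all 4 without. Against WT, M1BP RNAi + ZKSCAN3 was higher by 1.36 ± 0.29 (edgeR FDR 0.048), and against ZKSCAN3 by 1.48 ± 0.29 (edgeR FDR 0.047). Neither call held at FDR 0.05 in the fits without a WT library, without a ZKSCAN3 library or without replicate 2 of M1BP RNAi + ZKSCAN3. Such fits leave 1 library in a group. Without replicate 1 of M1BP RNAi + ZKSCAN3 the members lay higher, with medians of 0.91 against WT and 1.13 against ZKSCAN3. Other members at the ends were mRpL19 (0.46) and mRpL16 (0.29) above, and mRpL4 (-0.79), mRpL9 (-0.72), mRpL35 (-0.70) and mRpL55 (-0.65) below, none of them called (edgeR FDR 0.143 to 0.475).

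ZKSCAN3 alone changed no member either. In ZKSCAN3 against WT edgeR called 0 of 72 and 0% of all genes tested at FDR 0.05. No member had an unadjusted p under 0.05 (against 1.54% of all genes tested higher and 1.73% lower). DESeq2 called 0 members at FDR 0.05, where 21 of 16082 genes were higher and 13 lower. The median was -0.22 with 67 of 72 below 0 (against 53% of all genes tested). It rested on replicate 1 of ZKSCAN3, as the median was 0.01 without that library and -0.60 without replicate 2. In 18 genes the groups did not overlap, all lower, against 22.7% of all genes tested. Those with the largest differences were mRpS11 (-0.69), mRpL12 (-0.61), mRpL19 (-0.61), mRpL37 (-0.48) and mRpS10 (-0.46). The mRpL12 gene, for the protein that forms the stalk with which translation factors interact, was at 28.9 and 27.2 TPM in WT and at 11.3 and 25.8 in ZKSCAN3, so that 1 library made most of that difference.

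With M1BP RNAi and ZKSCAN3 together nearly every member was above the other male groups, but few were called. Against WT the median log2 fold change was 0.56, with 68 of 72 above 0 (against 51% of all genes tested), and 37 were higher without overlap (against 28.4%). Only mRpS6 was called at FDR 0.05, where 3.23% of all genes tested were higher and 3.02% lower. That count depends on the scaling. Library totals in place of TMM called 15 members higher (median 1.12, with all genes at 0.54), where 2067 of 11723 genes tested were higher. DESeq2 size factors in edgeR called 0 members, where 365 genes were higher. The median was 0.11 without replicate 2 of M1BP RNAi + ZKSCAN3 and 0.91 without replicate 1. Besides mRpS6, the largest values were in mRpS16 (1.34), mRpL30 (1.22), mRpS33 (1.17) and mRpL19 (1.05), and mRpL36 (-1.07) was the only one lower without overlap. The mRpL30 gene was at 27.1 and 27.9 TPM in WT and at 64.1 and 119 in M1BP RNAi + ZKSCAN3 (edgeR FDR 0.060), which shows how far the replicates of the combined genotype were apart.

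Against M1BP RNAi alone the median was 0.73, with 71 of 72 above 0 (against 43.8% of all genes tested above 0 and 56.2% below). In 49 members the groups did not overlap, all higher, against 22.8% of all genes tested. None was called at FDR 0.05 (edgeR, against 0.111% of all genes tested higher). Of the members, 18 were higher and none lower at an unadjusted p under 0.05 (against 8.97% and 8.98% of all genes tested). DESeq2 called 6 members higher at FDR 0.05, where 591 of 16082 genes were higher. The median was 0.35 without replicate 2 of M1BP RNAi + ZKSCAN3. The members with the largest differences were mRpL23 (1.38), mRpL13 (1.23), mRpL39 (1.19), mRpL4 (1.16) and mRpS33 (1.141). The mRpL23 gene was at 7.24 and 8.06 TPM in M1BP RNAi and at 10.96 and 31.3 in M1BP RNAi + ZKSCAN3. Its homologue in bacteria lies at the exit of the tunnel through which the new chain leaves the ribosome.

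M1BP RNAi was also compared in flies that carried ZKSCAN3, which shares no library with M1BP RNAi against WT. In M1BP RNAi + ZKSCAN3 against ZKSCAN3 the median was 0.79, with 71 of 72 above 0 (against 47.9% of all genes tested), and 39 were higher without overlap (against 27%). Of the 72, 2 were called higher at FDR 0.05 (edgeR, against 2.8% of all genes tested higher and 1.59% lower), mRpS6 and mRpL45. At an unadjusted p under 0.05, 26 were higher and none lower, against 13.9% and 9.08% of all genes tested. Library totals called 23 members higher at FDR 0.05 (median 1.32, with all genes at 0.46), where 2070 of 11723 genes tested were higher. DESeq2 size factors in edgeR and edgeR with only the 2 groups called 0 members, where 276 and 12 genes were higher. The mRpL45 gene, for a protein specific to mitochondria that lies near the exit of the tunnel, was at 13.7 and 13.5 TPM in ZKSCAN3 and at 26.5 and 35.4 in M1BP RNAi + ZKSCAN3 (0.71 ± 0.14, edgeR FDR 0.0483). It was not called at FDR 0.05 without a ZKSCAN3 library or without replicate 2 of M1BP RNAi + ZKSCAN3. The median over members was 0.50 without replicate 1 of ZKSCAN3 and 1.19 without its replicate 2. It was 0.38 without replicate 2 of M1BP RNAi + ZKSCAN3 and 1.13 without its replicate 1. Other large values were in mRpL19 (1.65), mRpS16 (1.55), mRpL12 (1.40) and mRpL30 (1.40), with an edgeR FDR of 0.056 in mRpL19.

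Set side by side, 52 members were below 0 in M1BP RNAi against WT and above 0 in M1BP RNAi + ZKSCAN3 against ZKSCAN3. A further 19 were above 0 in both, and mRpL36 was below 0 in both. The test of the difference between the 2 comparisons, the interaction, had a median of 0.95 with all 72 above 0 (against 47% of all genes tested). It called 0 members at FDR 0.05 (edgeR), where 0.00853% of all genes tested were higher and 0.0171% lower. At an unadjusted p under 0.05, 16 were above 0 and none below, against 8.45% and 9.32% of all genes tested. DESeq2 called 2 members higher, and 351 genes higher and 399 lower of 16082. The median of the interaction was 0.59 without replicate 2 of M1BP RNAi + ZKSCAN3 and 0.70 without replicate 1 of ZKSCAN3. Cytoplasmic ribosomal protein genes had an interaction median of 0.28 and nuclear oxidative phosphorylation genes one of 1.25, with 0 called in each list.

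**Figure D5:**
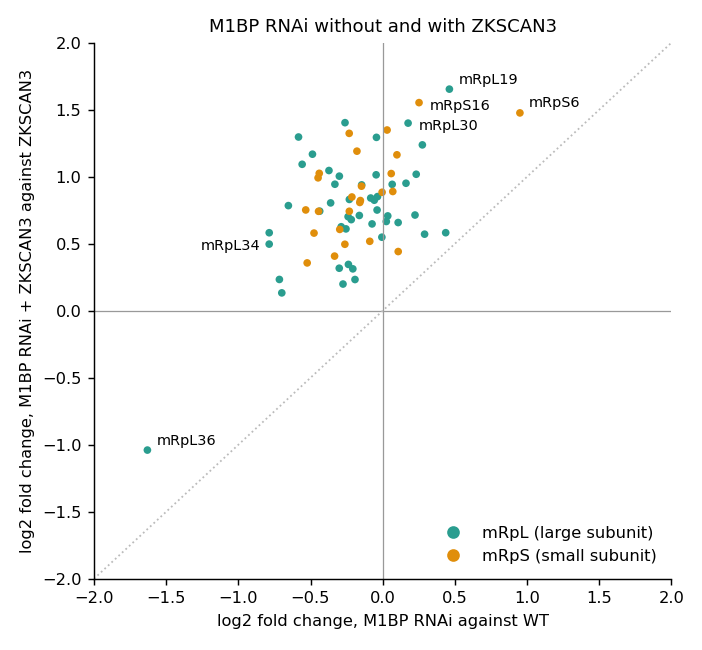
Each point is 1 mRp gene, with its log2 fold change for M1BP RNAi against WT on the x axis and for M1BP RNAi + ZKSCAN3 against ZKSCAN3 on the y axis (2 libraries per genotype), and the dotted line marks equal values. All points but mRpL36 lie above 0 on the y axis, and mRpS6 (0.95 and 1.48) and mRpL36 (-1.63 and -1.04) lie farthest out on the x axis.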

How the data were processed

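The authors aligned reads with Subread, counted them per gene over exons with featureCounts 1.6.1 against the FlyBase 6.19 annotation, and deposited whole-number counts for 8 male and 4 female libraries. Per the methods, counting was unstranded, counted mates separately and counted a read for each gene it overlaps. Replicate ChIP-seq peaks were called with MACS2 by the authors, and the deposited lists give each peak (8991 for ZKSCAN3, 8745 for ZKSCAN4) with a score. The deposited tables of differential expression hold the authors' own fold changes and p-values and were not used. Counts were tested with edgeR 4.0.16 (quasi-likelihood, TMM, default low-count filter, Benjamini-Hochberg FDR over all genes tested), with the 8 male libraries in 1 fit (11723 genes tested) and the 4 female libraries in another (10720). Standard errors come from the F statistic. DESeq2 1.42.0, other scalings and filters, a replicate block and the omission of each library were tried. TPM used deposited exon lengths and no TMM factors. A value of 3 counts was 0.0305 to 0.0590 CPM. Promoter windows came from the RefSeq Release 6 genome (17420 genes). Differential tests were checked on simulated data. The members and lists were chosen with earlier results of these data known. Genes were named by a rule: members past FDR 0.001, or past 0.05 where few, in males, the 5 largest changes each way per comparison without overlap, the 5 highest and lowest levels, those with shared exons, and those without a ZKSCAN3 peak. Some labels of the ChIP samples disagree on the tagged factor of 1 replicate. The peak lists were used as named.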

Additional observations from a re-analysis of the deposited data

How the results depend on the processing

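Medians over the 72 genes kept their direction under most alternatives. The exceptions were M1BP RNAi against WT with library totals in place of TMM (0.25 in place of -0.20, a scaling chosen after seeing the data) and ZKSCAN3 against WT, where leaving out each library in turn gave -0.60 to 0.014. The fall in L3W was -1.08 with library totals. At FDR 0.001 edgeR called 0 members in every comparison, and 1, 2 and 69 at FDR 0.05 in M1BP RNAi + ZKSCAN3 against WT, in M1BP RNAi + ZKSCAN3 against ZKSCAN3 and in L3W against L3F. At FDR 0.001 DESeq2 called 54 members in L3W against L3F. It called 3 in M1BP RNAi + ZKSCAN3 against ZKSCAN3 and 1 in M1BP RNAi + ZKSCAN3 against M1BP RNAi. With only the 2 groups it called 1 in M1BP RNAi against WT. Keeping all genes with at least 1 count called 2 in L3W. Counts over all genes at FDR 0.001 were not taken for these alternatives. At FDR 0.05 DESeq2 called 10 members higher in M1BP RNAi + ZKSCAN3 against ZKSCAN3, where 1027 of 16082 genes were higher. With only the 2 groups it called 3 lower in M1BP RNAi against WT, where 1585 of 15545 genes were lower. Peaks in the higher-scoring part of the ZKSCAN3 list, from its median up, were found at 46 promoters (63.9%, against 45.0% of all genes tested in males). For ZKSCAN4 they were found at 17 (23.6%, against 22.9%). The cause of these differences was not tested.

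The replicate numbers were not taken to pair the libraries, since the deviations of same-numbered libraries correlated from -0.22 to 0.44 over all genes and the labels give no shared batch or day. With a replicate block 0 members were called at FDR 0.001. At FDR 0.05 the block called 2 lower in M1BP RNAi against WT, 6 higher in M1BP RNAi + ZKSCAN3 against WT, 10 higher in M1BP RNAi + ZKSCAN3 against ZKSCAN3 and 61 lower in L3W against L3F. Over all genes tested the block called 643 higher and 893 lower, 492 and 425, 523 and 237, and 1908 and 2065 in these comparisons. For the members alone, replicate 2 was above replicate 1 in most genes of every male genotype.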
